A study of Homo sapiens with 16 samples.

Results

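The HOX cluster genes are the 39 protein-coding genes whose symbol is HOX, a cluster letter from A to D and a number, out of 58735 genes listed for the pancreatic ductal adenocarcinoma (PDAC) lines PANC-1 and BxPC3. They comprise 11 HOXA genes on chromosome 7, 10 HOXB genes on chromosome 17, 9 HOXC genes on chromosome 12 and 9 HOXD genes on chromosome 2. Poly-A enriched RNA of both lines was sequenced with and without gemcitabine, a nucleoside analogue used against pancreatic cancer that is built into DNA and stops its synthesis. The groups were PANC-1 with gemcitabine, PANC-1 control, BxPC3 with gemcitabine and BxPC3 control, with 4 libraries each and 16 in all. Dose and duration of treatment are not stated in the labels. Each line descends from 1 tumour, the labels do not say whether the replicates of a group were separate cultures, and p-values then measure the spread between these libraries only, which may be technical. Levels are given as FPKM, the fragment count scaled by transcript length and by library size, which is a level per length.

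HOX proteins are homeodomain transcription factors that give cells along the body axis their positional identity. Genes at the 3′ end of a cluster (low numbers, such as HOXA2) act towards the head, and genes at the 5′ end (high numbers, such as HOXB13) act towards the tail. Genes with the same number in different clusters are paralogs that arose by duplication of an ancestral cluster. The proteins bind DNA with partners of the PBX and MEIS families, Polycomb complexes keep the clusters silent, and MLL complexes keep them active. Adult epithelial cells and the tumours that grow from them carry a subset of active HOX genes that partly reflects the tissue they came from.

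**Figure D1:**
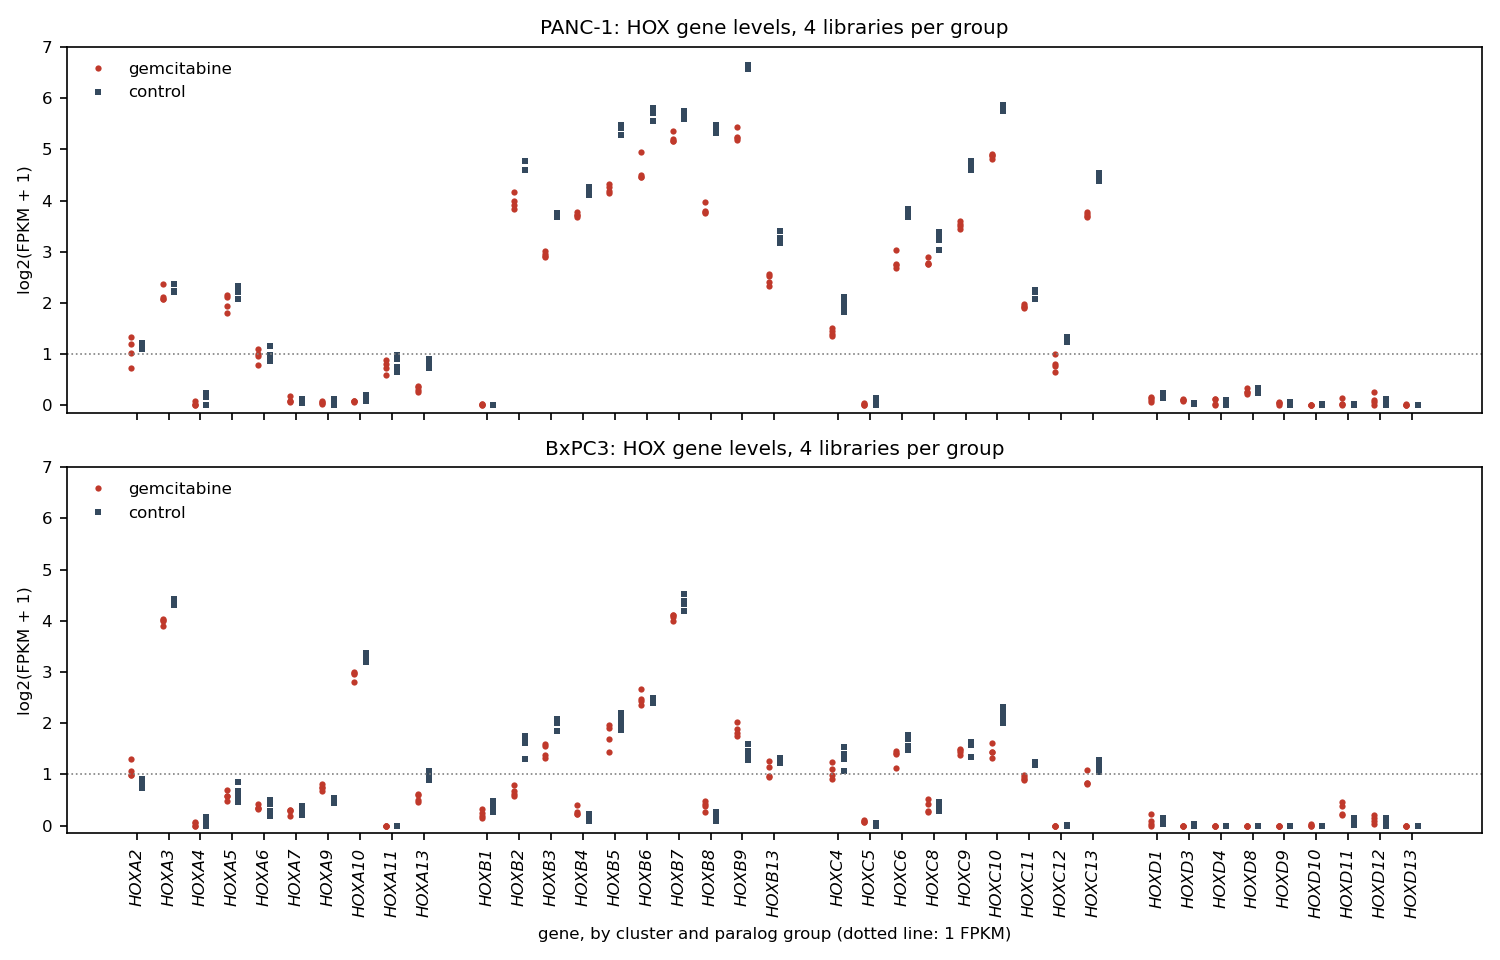
Level of the HOX genes reported here in every library, as log2(FPKM + 1), with genes along the horizontal axis by cluster and paralog group; circles are gemcitabine libraries, squares to their right are control libraries, and the dotted line marks 1 FPKM. HOXB and HOXC genes stood highest in PANC-1, where every gemcitabine library of HOXB2 to HOXB9 lay below every control, and HOXA3, HOXA10 and HOXB7 stood highest in BxPC3.

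Depth was 22152034 to 31642808 reads in listed genes for PANC-1 with gemcitabine, 23007302 to 24913994 for PANC-1 control, 29975612 to 34305420 for BxPC3 with gemcitabine and 28074125 to 37777222 for BxPC3 control. SMAD4, which BxPC3 is known to have lost, had no read in any BxPC3 library and 3.03 to 4.04 FPKM over the PANC-1 libraries. All 6 ductal epithelial markers passed the expression filter in BxPC3, whereas KRT7 and CDH1 did not in PANC-1. PANC-1 gemcitabine replicate 1 stood apart from the rest of its group by GC content. Its values deviated from the mean of the other 3 libraries of its group by a median of 0.45 (log2) among the quartile of genes highest in GC and by -0.42 among the quartile lowest in GC, against 0.09 over the tested HOX genes. In BxPC3, control replicate 2 differed from the other controls by a chi-square over degrees of freedom of 13.04 to 15.3, against 2.05 to 2.69 among those. Its tested HOX genes deviated by a median of 0.12 (log2). HOX results that turn on either library are given with and without it. In a bulk sample, fewer cells of a kind and less RNA per cell cannot be told apart.

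A HOX gene was called expressed in a line when it had at least 1 FPKM in at least 4 of the 8 libraries. By that rule PANC-1 expressed 22 members, made up of 5 HOXA, 9 HOXB, 8 HOXC and 0 HOXD genes, and BxPC3 expressed 15 members, made up of 2 HOXA, 7 HOXB, 6 HOXC and 0 HOXD genes. Both lines expressed 14 members, namely HOXA3, HOXB2, HOXB3, HOXB5, HOXB6, HOXB7, HOXB9, HOXB13, HOXC4, HOXC6, HOXC9, HOXC10, HOXC11 and HOXC13. PANC-1 alone expressed 8 members, among them HOXA2, HOXA5, HOXA6, HOXB4, HOXB8, HOXC8 and HOXC12, and BxPC3 alone expressed HOXA10. The other 16 members were expressed in neither line: HOXA4, HOXA7, HOXA9, HOXA11, HOXA13, HOXB1, HOXC5 and all 9 HOXD genes. The values of the lines come from separate tables that may have been normalised separately, so levels are set side by side between lines with no test.

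HOXB9 was the highest HOX gene of PANC-1 in both conditions, at 37.8 ± 2.95 FPKM with gemcitabine and 96.6 ± 2.35 FPKM in control (SD, n = 4 each). In PANC-1 controls HOXC10, HOXB6 and HOXB7 followed at 54.6, 51.8 and 49.7 FPKM, with ranges that overlapped between neighbours in this order. HOXB5 and HOXB8 came next at 41.6 and 41.1 FPKM, also with overlapping ranges. With gemcitabine the order changed at the top, where HOXB9 and HOXB7 (36.4 FPKM) overlapped and HOXC10 followed at 28.2 FPKM. BxPC3 was led by HOXB7 and HOXA3, whose ranges overlapped in both conditions, followed by HOXA10 and HOXB6 without overlap. HOXB7 averaged 15.9 FPKM with gemcitabine and 19.5 FPKM in control, and HOXA3 averaged 14.8 FPKM with gemcitabine and 19.9 FPKM in control. From the fifth place down, most neighbours in BxPC3 overlapped.

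Summed over a cluster, HOXB genes made up most of the HOX signal in PANC-1. The HOXB sum was 167 ± 9.59 FPKM with gemcitabine and 345 ± 11.7 FPKM in control, a ratio of 0.484. The HOXC sum was 68.1 ± 1.81 FPKM with gemcitabine and 130 ± 1.81 FPKM in control, a ratio of 0.526. The HOXA sum was 13.5 ± 0.490 FPKM with gemcitabine and 15.7 ± 0.848 FPKM in control, a ratio of 0.859. Over all 39 members the sum in PANC-1 was 249 ± 11.7 FPKM with gemcitabine and 490 ± 12.1 FPKM in control, so the treated libraries held 0.508 times the control level. In BxPC3 the sum over all members was 64.0 ± 3.06 FPKM with gemcitabine and 80.5 ± 3.19 FPKM in control, a ratio of 0.795. Control replicate 2 had the highest sum, 85.3 FPKM, and without it the controls averaged 79.0 FPKM and the ratio was 0.811. There HOXA and HOXB contributed nearly alike, HOXA with 25.7 FPKM with gemcitabine and 32.7 FPKM in control, and HOXB with 29.7 FPKM with gemcitabine and 35.8 FPKM in control. The HOXC sum in BxPC3 was 8.25 FPKM with gemcitabine and 11.9 FPKM in control, the lowest ratio of its 3 expressed clusters at 0.695.

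**Figure D2:**
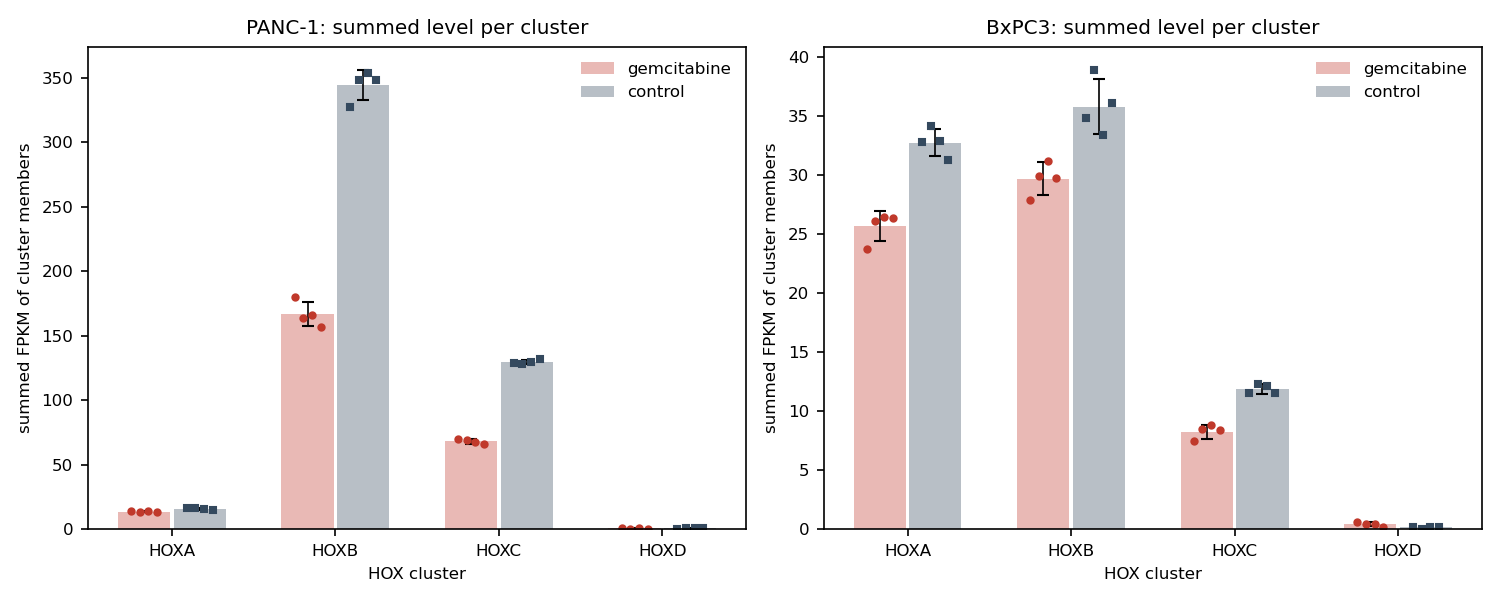
Summed FPKM of the members of each HOX cluster in PANC-1 (left) and BxPC3 (right); bars are means, whiskers 1 SD and points the 4 libraries per group, with gemcitabine left of control, and the vertical scales of the panels differ. The gemcitabine libraries lay below all controls for HOXA, HOXB and HOXC in both lines, by the widest margin for HOXB and HOXC in PANC-1.

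The question of the treatment comparison was which HOX genes differed between gemcitabine and control libraries of the same line. Each line was fitted alone with limma on log2(FPKM + 1) over all genes that passed 1 FPKM in at least 4 libraries, with 2-sided tests, Benjamini-Hochberg adjustment over all genes tested and a threshold of 0.05. Changes on this scale understate the change of genes with low levels, and the 95% intervals are not adjusted for the number of genes.

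In PANC-1 all 9 expressed HOXB genes and all 8 expressed HOXC genes fell with gemcitabine, and no expressed HOXA gene passed the test as fitted. The 17 calls among 22 tested members compare with 24.0% of all 12508 tested genes that were called lower and 20.7% called higher (44.8% in all). None of the 17 had a gemcitabine library that reached a control library, whereas 24.5% of all tested genes were lower and 21.3% higher without overlap. The median log2 change of the 22 tested members was -0.65, against -0.024 over all tested genes. Log2 changes of -1 or less were found for 5 members, HOXB5, HOXB6, HOXB8, HOXB9 and HOXC9, and for 1.06% of all tested genes. HOXC12 passed the expression filter through its controls alone, so a difference was built into its test and its groups could not overlap.

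HOXB8 (ENSG00000120068, chr17:48611377-48614939, minus strand), a regulator of myeloid progenitors in mouse, fell furthest in PANC-1. It had 12.97, 14.6, 12.6 and 12.5 FPKM with gemcitabine and 39.0, 39.9, 43.5 and 42.2 FPKM in control. Every treated library was thus between 12.5 and 14.6 FPKM and every control between 39.0 and 43.5 FPKM, with a log2 change of -1.57 (95% interval -1.73 to -1.42, adjusted p = 4.31e-07). The sums behind this were 2941 reads with gemcitabine and 8310 reads in control. HOXB9 (ENSG00000170689, chr17:48621159-48626356, minus strand), a gene of the thoracic region in mouse, had 42.1, 37.0, 36.4 and 35.6 FPKM with gemcitabine and 95.2, 98.4, 98.8 and 94.1 FPKM in control. The spread within each group was small beside the gap between them, and the log2 change was -1.33 (95% interval -1.48 to -1.19, adjusted p = 7.67e-07).

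HOXB5 in PANC-1 had 19.0, 18.3, 16.7 and 17.2 FPKM with gemcitabine and 38.0, 41.8, 43.2 and 43.3 FPKM in control (log2 change -1.18, adjusted p = 1.83e-06). HOXB6 had 29.9, 21.0, 21.7 and 21.0 FPKM with gemcitabine and 46.1, 54.4, 54.9 and 51.7 FPKM in control (log2 change -1.12, adjusted p = 8.50e-05). The high treated value of HOXB6 belonged to replicate 1, the library that stood apart, and it still lay below every control. Of the exonic bases of HOXB6, 16.6% are shared with HOXB3 on the same strand and 16.3% lie opposite HOXB-AS3. The sources do not give the strand setting of the read counting, so reads of HOXB6 and of the antisense gene cannot be told apart there. HOXB7, the neighbour of HOXB6 and HOXB8 in the cluster, fell less, with 34.9, 35.8, 40.0 and 35.0 FPKM with gemcitabine and 48.0, 50.2, 47.5 and 53.0 FPKM in control (log2 change -0.44, adjusted p = 0.000625).

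The anterior HOXB genes of PANC-1 fell less than HOXB5, HOXB6, HOXB8 and HOXB9, and HOXB4 fell little more than HOXB7. HOXB2, which patterns the hindbrain in mouse, had 17.0, 14.1, 14.9 and 13.2 FPKM with gemcitabine and 23.3, 26.5, 26.5 and 26.3 FPKM in control (log2 change -0.75, adjusted p = 0.000120). HOXB3 had 6.55, 7.05, 6.80 and 6.49 FPKM with gemcitabine and 11.7, 11.8, 12.5 and 12.1 FPKM in control (log2 change -0.75, adjusted p = 7.77e-06). HOXB4, known for expanding blood stem cells when supplied in excess, had 12.6, 11.8, 12.1 and 12.1 FPKM with gemcitabine and 18.2, 16.3, 18.2 and 17.0 FPKM in control (log2 change -0.49, adjusted p = 0.000162). All treated libraries of these genes lay below the lowest control. At the other end of the cluster HOXB13, a prostate lineage factor, had 4.93, 4.28, 4.73 and 4.01 FPKM with gemcitabine and 8.05, 9.59, 8.64 and 8.51 FPKM in control (log2 change -0.82, adjusted p = 3.58e-05). HOXB1, the most anterior HOXB gene, had 2 reads over the gemcitabine libraries and 0 over the controls and was not tested.

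Among the HOXC genes of PANC-1, HOXC9 fell furthest and HOXC10 was the highest. HOXC9 (ENSG00000180806, chr12:53994895-54003337, plus strand) had 10.6, 11.1, 9.95 and 10.3 FPKM with gemcitabine and 24.6, 25.1, 26.3 and 23.1 FPKM in control (log2 change -1.16, adjusted p = 1.28e-06). HOXC10 (ENSG00000180818, chr12:53985065-53990279, plus strand), which acts in the lumbar region and hindlimb of the mouse, had 28.6, 28.2, 28.9 and 27.0 FPKM with gemcitabine and 53.0, 53.8, 54.6 and 57.1 FPKM in control (log2 change -0.93, adjusted p = 1.78e-06). Each gene thus stood near a level of its own in treated libraries and near a higher one in controls, with little scatter. HOXC6 had 7.20, 5.74, 5.42 and 5.65 FPKM with gemcitabine and 11.9, 12.6, 11.9 and 13.2 FPKM in control (log2 change -0.94, adjusted p = 3.46e-05). HOXC13, a gene of hair and nail formation, had 12.3, 12.6, 12.0 and 11.7 FPKM with gemcitabine and 21.3, 19.9, 22.3 and 21.6 FPKM in control (log2 change -0.76, adjusted p = 9.84e-06).

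The remaining HOXC genes of PANC-1 were lower in level, where log2(FPKM + 1) understates a change, so ratios of means are given beside it. HOXC8 had 5.75, 5.77, 5.89 and 6.48 FPKM with gemcitabine and 9.44, 9.13, 7.20 and 8.42 FPKM in control (log2 change -0.45, adjusted p = 0.00243, ratio 0.699). HOXC4 had 1.86, 1.72, 1.64 and 1.55 FPKM with gemcitabine and 3.05, 2.53, 2.78 and 3.34 FPKM in control (log2 change -0.54, adjusted p = 0.000432, ratio 0.579). HOXC4 shares 17.8% and HOXC6 15.7% of its exonic bases with neighbouring HOXC genes on the same strand, so the split of reads between them is uncertain. HOXC11 had 2.79, 2.95, 2.82 and 2.72 FPKM with gemcitabine and 3.67, 3.64, 3.24 and 3.74 FPKM in control, the smallest of the 17 falls at a log2 change of -0.26 (adjusted p = 0.00547, ratio 0.790). HOXC12 had 0.994, 0.737, 0.705 and 0.559 FPKM with gemcitabine and 1.51, 1.36, 1.36 and 1.51 FPKM in control (log2 change -0.48, adjusted p = 0.00109, ratio 0.522). The ratios of HOXC4 and HOXC12 thus lay near the 0.573 of HOXC13, and on recovered reads with limma-voom HOXC12 had a log2 change of -1.01. The groups did not overlap for HOXC4, HOXC8 and HOXC11, and for HOXC12 the lack of overlap was built in by the filter.

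Paralogs of the same number are set side by side across HOXB and HOXC by the ratio of mean FPKM, gemcitabine over control, in PANC-1, with no test between them. In group 9 the ratio was 0.391 for HOXB9 and 0.424 for HOXC9, in group 6 it was 0.452 for HOXB6 and 0.485 for HOXC6, and in group 13 it was 0.515 for HOXB13 and 0.573 for HOXC13. Group 4 gave 0.697 for HOXB4 and 0.579 for HOXC4. The widest gap was in group 8, with 0.3204 for HOXB8 and 0.699 for HOXC8, and the 95% intervals of their log2 changes, -1.73 to -1.42 for HOXB8 and -0.64 to -0.26 for HOXC8, did not overlap.

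The 5 expressed HOXA genes of PANC-1 had log2 changes no lower than -0.23, and their groups overlapped. HOXA5 came nearest to a call, with 3.48, 2.48, 3.31 and 2.86 FPKM with gemcitabine and 3.98, 4.03, 3.61 and 3.23 FPKM in control (log2 change -0.23, 95% interval -0.44 to -0.01, adjusted p = 0.0793). HOXA3 had 4.17, 3.197, 3.32 and 3.19 FPKM with gemcitabine and 3.72, 4.14, 4.17 and 3.66 FPKM in control, where the highest treated value again belonged to replicate 1. Without that replicate HOXA3 was called lower (log2 change -0.21, adjusted p = 0.00335) and so was HOXA5 (log2 change -0.28, adjusted p = 0.0104), which brought the count to 19. With all 8 libraries and the GC trend removed, both were called as well, HOXA3 at -0.15 (adjusted p = 0.00821) and HOXA5 at -0.25 (adjusted p = 0.0240). HOXA2 ranged over 0.655 to 1.53 FPKM with gemcitabine and 1.16 to 1.33 FPKM in control, and HOXA6 over 0.718 to 1.15 FPKM with gemcitabine and 0.821 to 1.246 FPKM in control. The lowest bound among the 95% intervals of these 5 genes was -0.44, for HOXA5. The HOXA sum in PANC-1 did not overlap between the groups, at 13.1 to 13.9 FPKM with gemcitabine and 14.5 to 16.4 FPKM in control.

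**Figure D3:**
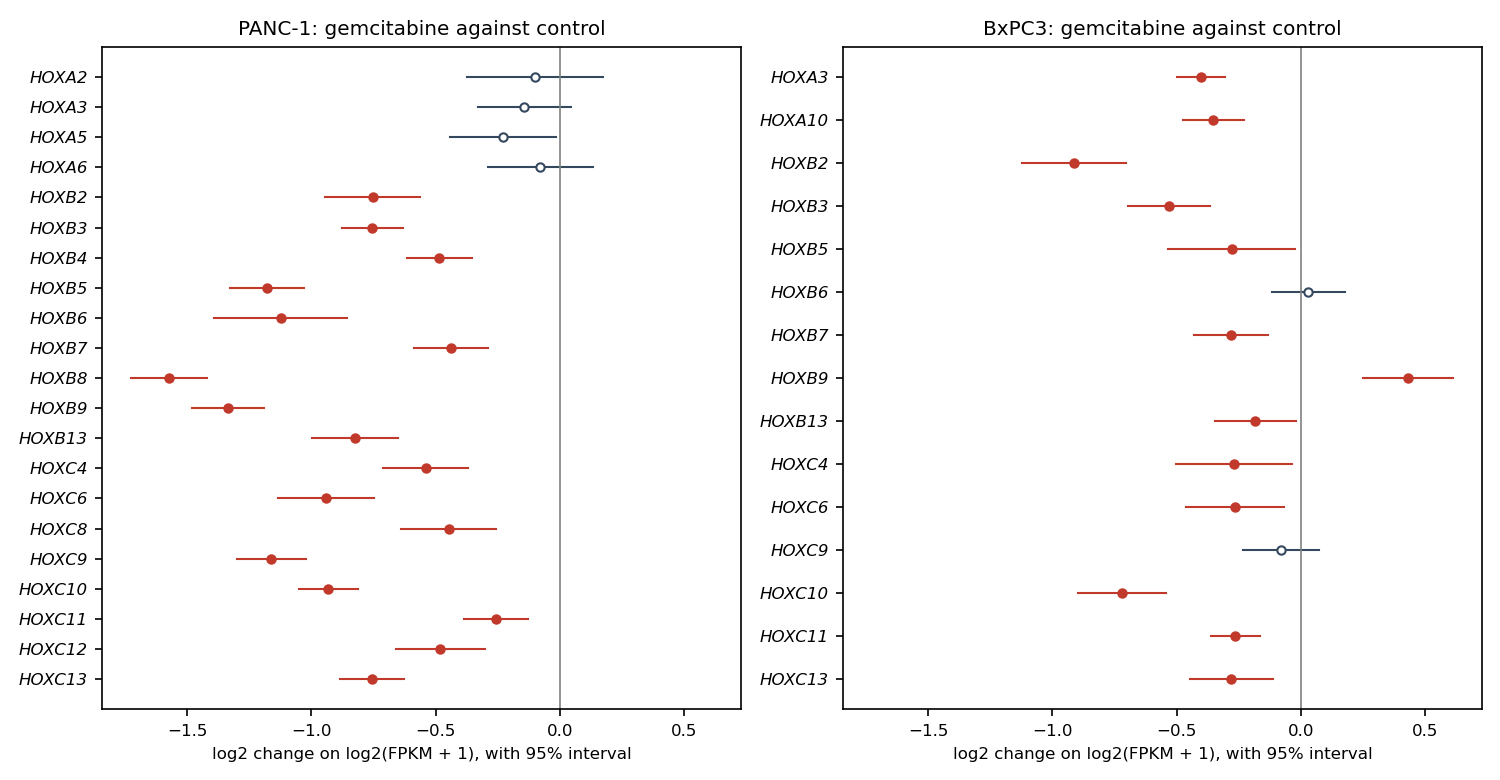
Log2 change between gemcitabine and control of the tested HOX genes reported here in PANC-1 (left) and BxPC3 (right), on log2(FPKM + 1), with 95% intervals from limma; filled circles passed the threshold of 0.05 after adjustment and open circles did not. In PANC-1 all 17 HOXB and HOXC genes lie left of 0 and the HOXA genes shown do not pass, while in BxPC3 HOXB9 alone passes on the right of 0.

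In BxPC3 both expressed HOXA genes fell together with 10 HOXB and HOXC genes, and HOXB9 rose. Among the 14 members expressed in both lines, the ratio of the treated to the control mean was lower in PANC-1 for 10 and lower in BxPC3 for 4 (HOXA3, HOXB2, HOXC10 and HOXC11). Of 15 tested members, 12 were called lower, 1 higher (HOXB9) and 2 not called (HOXB6 and HOXC9). Across all 12215 tested genes of BxPC3, 36.1% were called lower and 37.3% higher (73.4% in all), so calls were common in this line in either direction. The median log2 change of the 15 members was -0.28, against 0.0044 over all tested genes, and on this scale no member reached a log2 change of -1, which 4.02% of all tested genes passed. With limma-voom on recovered reads HOXB2 had -1.70 and HOXC10 -0.97. The groups did not overlap for 8 of the lower members and for HOXB9, against 33.2% of all tested genes lower and 34.3% higher without overlap. Among those 8, HOXB2 and HOXC11 passed the filter through their controls alone, so their groups could not overlap. Without control replicate 2, 10 members were called lower and 1 higher, with HOXB5 and HOXB13 no longer called. With values rescaled to TPM, 10 members were called lower and 3 higher among 21 tested, in a fit over 15659 genes with a median log2 change of 0.077. The share of all genes called was not computed for either setting, so these counts have no background beside them.

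HOXA3 (ENSG00000105997, chr7:27106184-27152581, minus strand), which in mouse is needed for thymus and parathyroid formation, had 13.8, 14.9, 15.2 and 15.3 FPKM with gemcitabine and 20.04, 20.2, 20.5 and 18.8 FPKM in BxPC3 controls. All treated libraries lay below all controls, with a log2 change of -0.40 (95% interval -0.50 to -0.30, adjusted p = 1.49e-05). Of the exonic bases of HOXA3, 15.4% lie opposite the antisense genes HOXA-AS2 and HOXA-AS3. HOXA10, a regulator of uterine development, had 6.01, 6.78, 6.94 and 6.99 FPKM with gemcitabine and 8.76, 9.40, 8.87 and 8.18 FPKM in control (log2 change -0.35, adjusted p = 0.000216). HOXA10 was the only member expressed in BxPC3 and not in PANC-1, where it had 0.0574 FPKM with gemcitabine and 0.106 FPKM in control.

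HOXB2 (ENSG00000173917, chr17:48540894-48544989, minus strand) had the largest fall in BxPC3 on the log2 scale, with 0.537, 0.499, 0.590 and 0.725 FPKM with gemcitabine and 2.16, 2.36, 1.46 and 2.05 FPKM in control (log2 change -0.91, adjusted p = 1.04e-05). Its treated mean was 0.293 times the control mean, resting on 182 reads with gemcitabine and 622 reads in control. HOXB2 passed the filter through its controls alone, as did HOXC11, so that a difference was built into both tests. HOXB3 had 2.01, 1.92, 1.501 and 1.61 FPKM with gemcitabine and 3.10, 2.61, 3.21 and 3.02 FPKM in control (log2 change -0.53, adjusted p = 9.08e-05). HOXB7, the highest HOXB gene of BxPC3, had 15.0, 16.2, 15.8 and 16.4 FPKM with gemcitabine and 19.2, 21.9, 17.1 and 19.9 FPKM in control (log2 change -0.28, adjusted p = 0.00310). For HOXB3 and HOXB7 the groups did not overlap.

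HOXB9 went the other way in BxPC3, with 2.35, 2.50, 3.09 and 2.69 FPKM with gemcitabine and 1.43, 2.03, 1.75 and 1.65 FPKM in control. Each treated library stood above each control, and the log2 change was 0.43 (95% interval 0.25 to 0.61, adjusted p = 0.000786). HOXB6 had 4.57, 4.37, 5.36 and 4.09 FPKM with gemcitabine and 4.50, 4.27, 4.48 and 4.61 FPKM in control, with overlapping groups and a log2 change of 0.03 (95% interval -0.11 to 0.18, adjusted p = 0.687). HOXB5 had 1.72, 2.91, 2.73 and 2.25 FPKM with gemcitabine and 2.63, 3.59, 3.23 and 2.96 FPKM in control (log2 change -0.28, adjusted p = 0.0494). HOXB13 had 0.935, 0.959, 1.40 and 1.22 FPKM with gemcitabine and 1.32, 1.48, 1.48 and 1.36 FPKM in control (log2 change -0.18, adjusted p = 0.0436). The groups overlapped for HOXB5 and HOXB13. The call of HOXB5 was lost in 5 and that of HOXB13 in 6 of the 8 fits that left out 1 library, with adjusted p up to 0.122 for HOXB5 and 0.119 for HOXB13.

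The HOXC genes of BxPC3 lay below 5 FPKM in every library. HOXC10 fell furthest, with 1.48, 1.71, 2.04 and 1.72 FPKM with gemcitabine and 3.04, 4.01, 3.62 and 3.38 FPKM in control (log2 change -0.72, adjusted p = 1.73e-05). Its treated mean was 0.495 times the control mean in BxPC3 and 0.516 times in PANC-1, at levels that differed widely between the lines. HOXC11 had 0.890, 0.853, 0.995 and 0.930 FPKM with gemcitabine and 1.27, 1.36, 1.32 and 1.26 FPKM in control (log2 change -0.26, adjusted p = 0.000348). HOXC13 had 0.770, 1.11, 0.759 and 0.783 FPKM with gemcitabine and 1.45, 1.07, 1.24 and 1.249 FPKM in control (log2 change -0.28, adjusted p = 0.00654), and gemcitabine replicate 2 overlapped the controls.

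HOXC6 had 1.18, 1.74, 1.65 and 1.68 FPKM with gemcitabine and 1.94, 2.39, 1.77 and 2.21 FPKM in BxPC3 controls (log2 change -0.27, adjusted p = 0.0202). Without control replicate 4 its adjusted p was 0.0538. HOXC4 had 0.887, 0.969, 1.14 and 1.36 FPKM with gemcitabine and 1.46, 1.10, 1.90 and 1.65 FPKM in control (log2 change -0.27, adjusted p = 0.0384), with overlapping groups, and its call was lost in 6 of the 8 fits without 1 library (adjusted p up to 0.105). HOXC9 had 1.69, 1.83, 1.80 and 1.60 FPKM with gemcitabine and 1.98, 2.10, 1.99 and 1.51 FPKM in control (log2 change -0.08, 95% interval -0.23 to 0.07, adjusted p = 0.306). Without control replicate 4, its lowest control, HOXC9 was called lower (log2 change -0.15, adjusted p = 0.0290).

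Of the 14 members tested in both lines, 10 were called lower in both: HOXB2, HOXB3, HOXB5, HOXB7, HOXB13, HOXC4, HOXC6, HOXC10, HOXC11 and HOXC13. In BxPC3, HOXB2 and HOXC11 passed the filter through their controls alone, so a difference was built in there. The BxPC3 calls of HOXB5, HOXB13, HOXC4 and HOXC6 were lost in 11, 10, 10 and 2 of 19 alternatives. HOXB9 was also called in both, lower in PANC-1 and higher in BxPC3. Of all 10670 genes tested in both lines, 12.8% were called lower in both and 33.9% were called in both in either direction. HOXB6 and HOXC9 were called lower in PANC-1 and not called in BxPC3, and HOXA3 the reverse. Whether the effect differed between the lines was tested as an interaction over all 16 libraries, as the PANC-1 log2 change minus the BxPC3 log2 change. Of 23 tested members, 13 had a lower effect in PANC-1, 2 had a higher one and 8 were not called. Across all 14134 genes tested, 51.8% were called, 26.6% lower and 25.2% higher in PANC-1.

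HOXB9 differed most among the genes expressed in both lines, with a difference of -1.77 (95% interval -1.99 to -1.54, adjusted p = 1.06e-09). HOXB6 followed at -1.15 (adjusted p = 4.39e-06), HOXC9 at -1.08 (adjusted p = 6.00e-08) and HOXB5 at -0.90 (adjusted p = 5.64e-05). HOXC6, HOXB13 and HOXC13 had differences of -0.68, -0.64 and -0.48. The effect on HOXA3 was higher in PANC-1 by 0.26 (95% interval 0.06 to 0.46, adjusted p = 0.0310), and this call was lost in 5 fits without 1 library. HOXB3 had a difference of -0.22 (adjusted p = 0.0472), and its call was lost in 11 such fits, with an adjusted p of 0.540 with a pseudocount of 0.1.

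The shared genes were lower in BxPC3 than in PANC-1, apart from HOXA3, so the scale understated their changes more in BxPC3. With a pseudocount of 0.1, 11 of 23 members were called, and on reads recovered from the FPKM values with limma-voom, 10. The share of all genes called was not computed for either setting, and in the main fit it was 51.8%. HOXB4, HOXB5, HOXB6, HOXB8, HOXB9, HOXB13, HOXC6 and HOXC9 kept their called difference under all 27 alternatives run. HOXC13 lost it with the pseudocount of 0.1 (adjusted p = 0.112) and with limma-voom (adjusted p = 0.101), and HOXC8 did so too (adjusted p = 0.0847 with the pseudocount and 0.149 with limma-voom). For HOXB2, by contrast, a higher effect in PANC-1 was called under both settings, with differences of 0.82 (adjusted p = 0.00155) and 0.88 (adjusted p = 0.00241).

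For HOXB2, HOXB7, HOXC4, HOXC10 and HOXC11 no difference was called among genes expressed in both lines. The intervals were -0.12 to 0.44 for HOXB2, -0.36 to 0.05 for HOXB7, -0.56 to 0.01 for HOXC4, -0.41 to -0.01 for HOXC10 and -0.13 to 0.14 for HOXC11. Without BxPC3 control replicate 2 the HOXC10 difference was called (-0.26, adjusted p = 0.0231). HOXB8, HOXB4, HOXC8 and HOXA2 were also called, at -1.77, -0.60, -0.46 and -0.38, and HOXA10 at 0.29. Each of these 5 lies below the expression rule in one line, where log2(FPKM + 1) shrinks a change. The call of HOXA2 (adjusted p = 0.0416) was lost in 12 of 27 alternatives, 9 of them fits without 1 library. Without BxPC3 control replicate 2 its adjusted p was 0.0551. HOXA10 had 62 reads in PANC-1, and with limma-voom its difference turned to -0.45 (adjusted p = 0.319). HOXC12 had 1 read over all 8 BxPC3 libraries, so its called difference of -0.48 restates its change in PANC-1 (adjusted p = 0.427 with limma-voom). Without HOXA10 and HOXC12, 13 called differences remained.

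**Figure D4:**
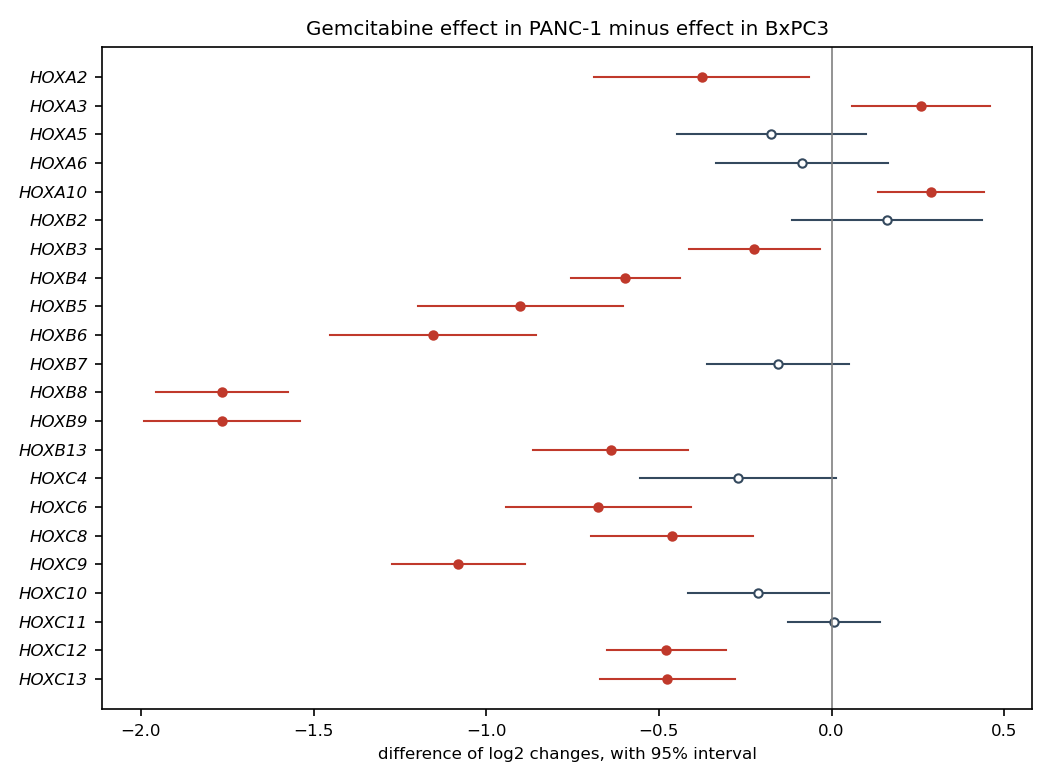
Log2 change with gemcitabine in PANC-1 minus that in BxPC3 for the HOX genes reported here and tested over both lines, with 95% intervals from limma; filled circles passed the threshold of 0.05 after adjustment. HOXB6, HOXB8, HOXB9 and HOXC9 lie below -1, and HOXA3 and HOXA10 alone pass on the right of 0.

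Members outside the expression rule were low in every group. Just inside it in PANC-1 was HOXA6, with 4 libraries of at least 1 FPKM, and just outside was HOXA11, with 0.512 to 0.858 FPKM with gemcitabine and 0.579 to 0.977 FPKM in control. HOXA13, a gene of the limb ends and the genital tract, was outside the rule in both lines. It had 0.190, 0.228, 0.277 and 0.299 FPKM with gemcitabine and 0.656, 0.740, 0.878 and 0.678 FPKM in PANC-1 controls. In BxPC3 it had 0.517, 0.374, 0.523 and 0.407 FPKM with gemcitabine and 1.03, 1.09, 0.857 and 0.958 FPKM in control. All treated libraries lay below all controls in both lines.

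HOXA2 in BxPC3 had 0.995, 1.46, 0.975 and 1.09 FPKM with gemcitabine and 0.669, 0.786, 0.687 and 0.871 FPKM in control, with no overlap and the treated side higher. HOXA9, a gene of blood progenitors, was likewise higher in all treated BxPC3 libraries, at 0.680 ± 0.0637 FPKM with gemcitabine and 0.424 ± 0.0466 FPKM in control. With the filter lowered to 0.1 FPKM, 27 members were tested in BxPC3, of which 10 were lower and 5 higher, against 29.1% and 29.8% of all genes then tested. The members added to the calls were HOXA13 (lower) and HOXA2, HOXA9, HOXB8 and HOXD11 (higher). HOXD11 reached 0.1 FPKM in all 4 gemcitabine libraries and in 1 control, so it passed the filter through its treated group and a difference was built into its test. In PANC-1 the lowered filter gave 18 lower of 26 tested, with HOXA13 added, against 18.1% of all genes then tested.

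The HOXD cluster was near silent in both lines. Its 9 genes together had 135 reads over the gemcitabine libraries and 111 over the controls of PANC-1, and 104 reads over the gemcitabine libraries and 36 over the controls of BxPC3. No HOXD gene exceeded 0.268 FPKM in PANC-1 (HOXD8) or 0.377 FPKM in BxPC3 (HOXD11). HOXD11 in BxPC3 had 0.377, 0.296, 0.156 and 0.166 FPKM with gemcitabine and 0.0339, 0.0137, 0.0291 and 0.102 FPKM in control, from 70 reads with gemcitabine and 13 reads in control. HOXD4, HOXD8, HOXD9, HOXD13 and HOXA11 had no read in any of the 8 BxPC3 libraries. A count of 0 there allows up to 3 reads over the 8 libraries, which is 0.0043 FPKM for HOXD8 and 0.0049 FPKM for HOXA11, for counting error only.

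Promoter sequences were available for 20 of the 39 members, from RefSeq on GRCh38.p14, as windows of 150 bases before the start; HOXC4 and HOXC5 share one, which leaves 19 distinct windows. Among those not matched were HOXA5, HOXB2, HOXB3, HOXB4, HOXB5, HOXB6, HOXB7, HOXB8, HOXB9, HOXB13, HOXC6, HOXC8, HOXC9, HOXC10, HOXC11, HOXC12, HOXC13 and HOXD9. The pair of windows for HOXA3 and HOXC4 is shown because the windows hold the same 2 words at almost the same places, and that of HOXA13 because it holds only one of them. Capitals mark the CCAAT box (CCAAT, or ATTGG on the other strand) and the word TCATGTG, searched on both strands. HOXA3 lies at chr7:27152584-27152733 on the minus strand, HOXC4 at chr12:54016738-54016887 on the plus strand and HOXA13 at chr7:27200092-27200241 on the minus strand, each written 5′ to 3′ towards the start. The start used is the RefSeq start nearest the 5′ end of the gene, 2, 43 and 15 bases from it for HOXA3, HOXC4 and HOXA13. For HOXA6, HOXA7, HOXA9, HOXC5, HOXD3, HOXD10 and HOXD11 it lies 1261 to 20695 bases away, so those windows may not be those of the transcripts measured.
HOXA3: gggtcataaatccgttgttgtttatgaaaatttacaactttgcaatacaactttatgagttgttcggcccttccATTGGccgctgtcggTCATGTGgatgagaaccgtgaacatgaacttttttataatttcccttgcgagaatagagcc
HOXC4: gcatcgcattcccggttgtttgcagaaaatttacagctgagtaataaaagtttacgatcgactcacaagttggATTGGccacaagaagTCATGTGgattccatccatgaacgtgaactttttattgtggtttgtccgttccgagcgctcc
HOXA13: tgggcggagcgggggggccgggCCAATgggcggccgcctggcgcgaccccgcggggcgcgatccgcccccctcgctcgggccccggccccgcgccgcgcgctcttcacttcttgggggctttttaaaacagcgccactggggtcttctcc

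The inverted CCAAT box begins 76 bases before the start of HOXA3 and 77 bases before that of HOXC4, and TCATGTG begins 61 and 62 bases before them. A CCAAT box on either strand was found in 14 of the 19 HOX windows (73.7%), against 23.5% of the 34943 windows in the table. TCATGTG, a word chosen after the windows had been read, was found in 6 of 19 (31.6%), in HOXA2, HOXA3, HOXA7, HOXA11, HOXC4 and HOXD10, against 1.71% of all windows. Both words occurred together in 5 of 19, against 0.472% of all windows, and they do not overlap in the windows shown. The GC box GGGCGG was found in 5 of 19 HOX windows (26.3%), against 36.7% of all windows, and TATAAA in 3 of 19 (15.8%), against 6.72%. TGATTNAT, a word bound by PBX with HOX proteins, was found in 2 of 19 (10.5%), HOXA2 and HOXD11, against 1.39%. Of the members called lower with the filter of 1 FPKM, HOXA3, HOXA10 and HOXC4 alone have a window. The windows of HOXA3 and HOXC4 hold TCATGTG, and that of HOXA10 does not. HOXA2, whose window holds the CCAAT box and TCATGTG, was higher in every treated BxPC3 library and was not called in PANC-1. HOXA7, HOXA11 and HOXD10, which hold TCATGTG, were below the expression rule in both lines. HOXA13, whose window lacks TCATGTG, was lower in all treated libraries of both lines. A link between TCATGTG and the direction of change was not tested.

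Long non-coding RNA genes of the HOX clusters were examined in a list of 18. In PANC-1, 10 were tested, of which 6 fell, 0 rose and 4 were not called, with a median log2 change of -0.35, where 24.0% of all tested genes fell and 20.7% rose. HOTAIR, which lies in the HOXC cluster, had 2.44, 3.23, 2.86 and 3.26 FPKM with gemcitabine and 5.24, 4.998, 5.29 and 5.49 FPKM in control (log2 change -0.67, adjusted p = 0.000148). HOXB-AS3, which runs opposite HOXB5 and HOXB6, had 5.82, 6.14, 4.73 and 5.21 FPKM with gemcitabine and 10.8, 9.96, 10.6 and 11.3 FPKM in control (log2 change -0.85, adjusted p = 4.03e-05). Both lay lower in all treated libraries, as did HAGLR, a transcript of the HOXD cluster, with 1.94 ± 0.201 FPKM with gemcitabine and 2.74 ± 0.0835 FPKM in control (log2 change -0.35, adjusted p = 0.00177).

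In BxPC3, 4 of the 18 were tested, of which 3 fell and 1 rose, with a median log2 change of -0.60. Calls in either direction were made for 73.4% of all tested genes there, so 4 calls of 4 say little by their number. HOXA-AS2, opposite HOXA3, had 3.0001, 3.11, 3.23 and 3.13 FPKM with gemcitabine and 5.74, 6.98, 6.20 and 6.67 FPKM in control (log2 change -0.84, adjusted p = 3.95e-07). HAGLR had 1.74 ± 0.0818 FPKM with gemcitabine and 3.73 ± 0.196 FPKM in control (log2 change -0.79, adjusted p = 1.67e-07), although the coding HOXD genes beside it were near 0. HOXB-AS3 rose in BxPC3, with 1.87, 1.41, 1.22 and 0.992 FPKM with gemcitabine and 0.598, 0.256, 1.01 and 0.686 FPKM in control (log2 change 0.54, adjusted p = 0.00723), and 1 treated library lay below the highest control. HOTAIR in BxPC3 was below 1 FPKM in all libraries.

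**Figure D5:**
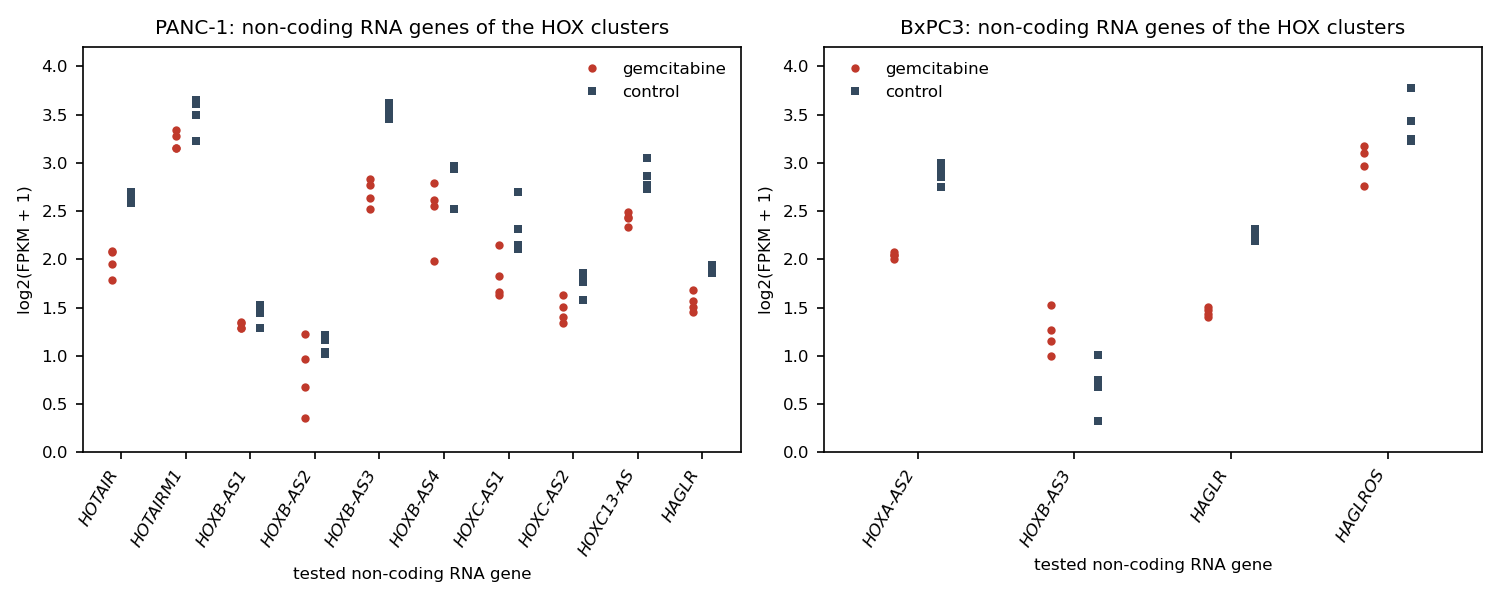
Level of each tested non-coding RNA gene of the HOX clusters in every library, as log2(FPKM + 1), in PANC-1 (left, 10 genes) and BxPC3 (right, 4 genes); circles are gemcitabine libraries and squares to their right are control libraries. HOTAIR, HOXB-AS3 and HAGLR lie lower in all treated PANC-1 libraries, and HOXB-AS3 tends the other way in BxPC3.

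The genes of the TALE partners of HOX proteins moved differently in the lines. Of 9 genes, 5 were tested in PANC-1, where PKNOX1 alone was called and rose (2.63 ± 0.0640 FPKM with gemcitabine and 2.16 ± 0.143 FPKM in control, log2 change 0.20, adjusted p = 0.0151); the list median was 0.07. In BxPC3, 8 were tested, of which 7 fell and 1 rose, with a median of -0.36, where 36.1% of all tested genes fell and 37.3% rose. PBX2 had 12.8 ± 0.559 FPKM with gemcitabine and 18.5 ± 1.36 FPKM in control (log2 change -0.50, adjusted p = 1.79e-05), and MEIS2 had 1.86 ± 0.111 FPKM with gemcitabine and 3.10 ± 0.102 FPKM in control (log2 change -0.52, adjusted p = 2.80e-06). PBX3 was the member that rose, with 1.47 ± 0.125 FPKM with gemcitabine and 0.940 ± 0.111 FPKM in control (log2 change 0.35, adjusted p = 0.000363).

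Of 27 Polycomb group genes, all were tested in PANC-1, where 6 fell and 4 rose (median log2 change 0.0043), and 26 were tested in BxPC3, where 11 fell and 6 rose (median -0.11). Over all tested genes, 24.0% fell and 20.7% rose in PANC-1 and 36.1% fell and 37.3% rose in BxPC3. CBX7, a chromodomain subunit of the repressive complex PRC1, fell in both lines. It had 1.51 ± 0.158 FPKM with gemcitabine and 2.78 ± 0.189 FPKM in control in PANC-1 (log2 change -0.59, adjusted p = 0.000113), and 1.08 ± 0.165 FPKM with gemcitabine and 3.88 ± 0.226 FPKM in control in BxPC3 (log2 change -1.23, adjusted p = 7.39e-08). EZH2, the histone methyltransferase of PRC2, rose in BxPC3 to 13.2 ± 0.523 FPKM with gemcitabine, against 5.46 ± 0.312 FPKM in control (log2 change 1.14, adjusted p = 1.37e-08). In PANC-1 it had 7.01 ± 0.491 FPKM with gemcitabine and 6.35 ± 0.317 FPKM in control (log2 change 0.12, adjusted p = 0.158). There gemcitabine replicate 1 had 6.30 FPKM and the other treated libraries 7.07 to 7.39 FPKM, with controls at 5.99 to 6.76 FPKM.

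Of 18 genes of MLL and trithorax activators, 17 were tested in PANC-1, where 2 fell and 0 rose (median log2 change 0.10), and 18 in BxPC3, where 3 fell and 9 rose (median 0.11). Calls in either direction were made for 44.8% of all genes in PANC-1 and 73.4% in BxPC3. KDM6B, a histone demethylase that opposes Polycomb, fell in both lines, by 0.53 in PANC-1 (adjusted p = 0.00336) and by 0.45 in BxPC3 (adjusted p = 7.38e-05) on the log2 scale. KMT2C, a histone methyltransferase, fell by 0.24 in PANC-1 (adjusted p = 0.0166). KMT2A, the MLL gene itself, had 5.38 ± 0.443 FPKM with gemcitabine and 4.62 ± 0.325 FPKM in control in PANC-1 (log2 change 0.18, adjusted p = 0.0699). Its gemcitabine replicate 1 had 4.72 FPKM and the other treated libraries 5.49 to 5.70 FPKM, with controls at 4.27 to 4.92 FPKM. DOT1L, a methyltransferase recruited by MLL fusion proteins, had 6.81 ± 0.198 FPKM with gemcitabine and 4.05 ± 0.159 FPKM in control in BxPC3 (log2 change 0.63, adjusted p = 2.96e-07). WDR5 and HCFC1, subunits of MLL complexes, rose in BxPC3 by log2 changes of 0.50 (adjusted p = 3.30e-06) and 0.65 (adjusted p = 1.83e-05).

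Retinoic acid induces HOX genes of the 3′ end during development. Of 18 genes of its pathway, 10 were tested in PANC-1, where 3 fell and 3 rose (median log2 change 0.10), and 13 in BxPC3, where 7 fell and 2 rose (median -0.20). The share called over all genes was 44.8% in PANC-1 and 73.4% in BxPC3. RARG, a retinoic acid receptor, fell in both lines, with 6.34 ± 1.13 FPKM with gemcitabine and 10.8 ± 0.500 FPKM in control in PANC-1 (log2 change -0.69, adjusted p = 0.000591), and 29.04 ± 0.587 FPKM with gemcitabine and 51.3 ± 0.972 FPKM in control in BxPC3 (log2 change -0.80, adjusted p = 1.37e-08). ALDH1A1, a retinaldehyde dehydrogenase that makes retinoic acid, had 2.89 ± 0.204 FPKM with gemcitabine and 20.6 ± 0.582 FPKM in control in BxPC3 (log2 change -2.48, adjusted p = 1.36e-10). DHRS3, which reduces retinaldehyde, fell in BxPC3 by 1.15 (log2, adjusted p = 3.37e-08). ALDH1A3, another retinaldehyde dehydrogenase, rose in PANC-1 (log2 change 0.42, adjusted p = 0.000188). Among the 9 ParaHox and related homeobox genes outside the clusters, 0 were tested in PANC-1, and MNX1 alone was tested in BxPC3, where it fell to 2.98 ± 0.255 FPKM with gemcitabine, against 4.91 ± 0.345 FPKM in control (log2 change -0.57, adjusted p = 1.38e-05).

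Markers of cell types moved between the groups as well, in lines where 44.8% (PANC-1) and 73.4% (BxPC3) of all tested genes were called. Of 6 ductal epithelial markers, 4 were tested in PANC-1, where 3 rose and 0 fell, and the sum of the 6 was 551 to 758 FPKM with gemcitabine and 337 to 369 FPKM in control. In BxPC3, 5 rose and 1 fell, with a sum of 2672 to 3101 FPKM with gemcitabine and 2826 to 3297 FPKM in control. Of 6 fibroblast markers, COL1A1 alone was tested in PANC-1 and fell, with a sum over the list of 8.19 to 11.7 FPKM with gemcitabine and 11.9 to 12.9 FPKM in control; in BxPC3 2 were tested, 1 fell and 1 rose, and the sum was 3.85 to 4.23 FPKM with gemcitabine and 6.46 to 7.18 FPKM in control. Of 4 endothelial markers 1 was tested in each line and rose, KDR in PANC-1 (sum of the list 3.11 to 3.77 FPKM with gemcitabine and 0.380 to 0.634 FPKM in control) and CDH5 in BxPC3 (sum 5.59 to 6.29 FPKM with gemcitabine and 1.38 to 1.61 FPKM in control). KDR and CDH5 passed the expression filter through their gemcitabine libraries alone, so a difference was built into both tests. Of the untested members in BxPC3, PECAM1 was lower in every treated library, at 0.132 FPKM with gemcitabine and 0.756 FPKM in control. VWF averaged 0.112 FPKM with gemcitabine and 0.151 FPKM in control there, with overlapping groups, and KDR stayed at or below 0.00879 FPKM. In PANC-1 PECAM1 and VWF were higher in every treated library, at levels of at most 0.0356 FPKM. None of 5 leukocyte markers was tested in either line, their sum stayed below 1 FPKM in every library, and CD3E had no read in PANC-1. The part of these shifts in the HOX results was not tested.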

How the data were processed

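Poly-A enriched RNA libraries of PANC-1 and BxPC3 were made after column isolation, per the labels' protocols, and groups and replicate numbers come from the titles. For each line the authors deposited a table of FPKM, by gene and by library, together with gene lengths in bases, per the file headers. Per the submitters' processing notes, CASAVA and HISAT2 were used (no versions stated); the read counter and its strand setting are not given in the sources used. Those notes name the mouse build mm10, but the identifiers are human and 58724 of 58735 have the start and end of GENCODE 29, so gene coordinates are GRCh38. A second entry for HOXC5, of another biotype, is not a member.

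FPKM multiplied by gene length gave whole reads for 100.0% of values (tolerance 0.02 reads, genes up to 2000 reads), which gives the depth; limits from counts cover only counting error, because PCR duplicates are not separate molecules. Any pair of libraries within a group differed beyond sampling noise (lowest chi-square over its degrees of freedom 2.054). The fits used limma 3.58.1 in R 4.3.3 (empirical Bayes, trend and robust), as 3 fits: each line alone and the interaction. Tables were handled with Python 3.11.15, pandas 2.3.3, numpy 2.4.6 and scipy 1.17.1, figures were drawn with matplotlib 3.10.9, and the fit was tested on simulated data. Same-numbered replicates did not deviate together (correlations -0.33 to 0.18 in BxPC3 and -0.38 to 0.19 in PANC-1), so the numbers were not used as pairs.

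The members and lists were chosen with earlier results of these data known. Values per library are given for members that were expressed and called or highest in their cluster, and up to 3 genes with the smallest p per other list and line are named. Genes outside this rule that are given by value were chosen after their values were seen. Alternatives were other pseudocounts, filters, scalings, variance models, gene sets, a replicate block, a correction for GC content, a threshold on size and fits without 1 library. Limma-voom on the recovered reads was added after the data were seen. Some genes that the rule takes are not reported here.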

Additional observations from a re-analysis of the deposited data

Results flagged for a closer look

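Of 72 groups of 4 libraries checked for a library far from the other 3 (a gap over range above Dixon's 95% critical value, which chance gives for about 1 group in 20), 5 had one. PANC-1 gemcitabine replicate 1, which stood apart by GC content, gave 2: HOXA3 at 4.17 FPKM (others 3.19 to 3.32) and HOXB6 at 29.9 FPKM (others 21.0 to 21.7). HOXB2 had 23.3 FPKM in PANC-1 control replicate 1 (others 26.3 to 26.5). In BxPC3, HOXC6 had 1.18 FPKM in gemcitabine replicate 1 (others 1.65 to 1.74) and HOXC13 had 1.11 FPKM in gemcitabine replicate 2 (others 0.759 to 0.783).

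The gemcitabine effect differed between the lines for 15 of 23 members tested (limma interaction, PANC-1 log2 change minus BxPC3 log2 change). Across all 14134 genes tested, 51.8% were called, so such calls were common. The differences were -1.77 for HOXB8, -1.77 for HOXB9, -1.15 for HOXB6, -1.08 for HOXC9, -0.90 for HOXB5, -0.68 for HOXC6, -0.64 for HOXB13, -0.60 for HOXB4, -0.48 for HOXC12, -0.48 for HOXC13, -0.46 for HOXC8, -0.38 for HOXA2 and -0.22 for HOXB3. They were 0.26 for HOXA3 and 0.29 for HOXA10. HOXC12 had 1 read in all of BxPC3, so its value restates its change in PANC-1, and HOXA10 had 62 reads in PANC-1 and a difference of -0.45 with limma-voom (adjusted p = 0.319). Without HOXC12 and HOXA10, 13 members remained.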

How the results depend on the processing

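All 17 PANC-1 calls kept direction and side of the threshold under all 19 alternatives of that fit. Of the 13 BxPC3 calls 9 did, and HOXB5, HOXB13, HOXC4 and HOXC6 did not, losing the call in 11, 10, 10 and 2 of 19. Of the 15 differences between lines 8 did under all 27. With each library left out in turn, 17 to 19 members were called in PANC-1, 10 to 12 in BxPC3 and 12 to 15 for the difference. With the replicate number as a block the counts in the same order were 17, 13 and 13, and with the GC trend removed as well 19, 13 and 16; HOXA3 and HOXB3 lost the called difference under the block alone. The numbers showed no pairing: 0 of 4 in BxPC3 and 1 of 4 in PANC-1 correlated best with their own number. Limma-voom called 17, 10 and 10 in that order. The shares of all genes called were not computed for the fits without 1 library, the block, the GC correction or limma-voom. Requiring an absolute log2 change of 1 left 5 in PANC-1, 0 in BxPC3 and 4 for the difference. At 5 FPKM, 14 members were expressed in PANC-1 and 3 in BxPC3, and at 0.1 FPKM 27 in BxPC3.

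Some values changed sign. HOXB6 in BxPC3 ranged from -0.033 to 0.074 and HOXA2 in PANC-1 from -0.19 to 0.016 without 1 library, and the HOXC11 difference from -0.029 to 0.026. The HOXC10 difference of -0.21, not called, was 0.023 with a pseudocount of 0.1. The HOXA10 difference of 0.29, which was called, was -0.45 with limma-voom (adjusted p = 0.319). The cause was not tested. Depth limits members below the expression rule, where few reads stand behind a value.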
